A study of Mus musculus with 7 samples.

Results

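The genes described here are 6 metalloproteinases and the 4 tissue inhibitors of metalloproteinases (TIMPs): Mmp2, Mmp3, Mmp8, Mmp9, Mmp14 and Adamts1, and Timp1, Timp2, Timp3 and Timp4. Every probe set that the array's annotation ties to 1 of these genes and to no other was kept, which gave 23 of the 45037 probe sets, 10 for the proteases and 13 for the TIMPs. They stand for 10 of the 18193 genes that the array names by a probe set of their own. The rule for probe sets uses no expression value, but the genes themselves were chosen with earlier results of these data known. Counts over these genes, set beside shares over the whole array, are therefore descriptions and not tests.

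RNA came from 7 whole hearts, 1 per array, and all were from mice that were 7 months old and carried the mdx mutation of dystrophin. In the 4 hearts called mdx HRTΔIKKβ, Cre driven by the Myh6 promoter removed IKKβ, a kinase of the pathway to NF-κB, and the 3 control hearts, called mdx IKKβf/f, were mdx with the floxed gene and no Cre listed. The Myh6 promoter is active in cardiomyocytes, so the fibroblasts, endothelial cells and leukocytes of an mdx HRTΔIKKβ heart kept IKKβ. The study used male mice of the C57BL/10 ScSn mdx line, and no heart without the mdx mutation was on these arrays. The comparison asks how the transcripts of matrix-degrading enzymes and of their inhibitors differ when dystrophic cardiomyocytes lack IKKβ.

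Matrix metalloproteinases are zinc enzymes that cleave collagens, proteoglycans and other proteins of the extracellular matrix. Most are secreted as inactive precursors, are activated by other proteases, and are blocked by TIMPs, which sit in the active site of the enzyme. In the heart, fibroblasts, leukocytes and vascular cells make many of them, and the balance of enzyme and inhibitor is known to matter for fibrosis and for the shape of the ventricle after injury. Transcript levels do not report enzyme activity.

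For 3 of these genes, chosen because their brightest probe sets differed most between hearts, the sequence before the annotated start of the gene is shown, from the RefSeq promoter table of build GRCm38.p6. All are on the plus strand, 5′ to 3′. They lie at chrX:20869916-20870165 for Timp1, chr9:7445572-7445821 for Mmp3 and chr9:7558179-7558428 for Mmp8. Capitals mark the motifs found.
Timp1: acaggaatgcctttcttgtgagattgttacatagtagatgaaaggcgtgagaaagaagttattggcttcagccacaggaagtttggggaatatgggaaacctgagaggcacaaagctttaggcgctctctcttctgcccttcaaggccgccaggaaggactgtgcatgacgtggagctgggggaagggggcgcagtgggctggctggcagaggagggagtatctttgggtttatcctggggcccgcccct
Mmp3: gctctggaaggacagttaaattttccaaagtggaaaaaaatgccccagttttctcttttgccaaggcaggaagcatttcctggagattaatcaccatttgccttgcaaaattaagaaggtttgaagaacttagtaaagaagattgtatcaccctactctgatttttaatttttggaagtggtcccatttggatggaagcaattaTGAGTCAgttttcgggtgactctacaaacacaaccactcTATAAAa
Mmp8: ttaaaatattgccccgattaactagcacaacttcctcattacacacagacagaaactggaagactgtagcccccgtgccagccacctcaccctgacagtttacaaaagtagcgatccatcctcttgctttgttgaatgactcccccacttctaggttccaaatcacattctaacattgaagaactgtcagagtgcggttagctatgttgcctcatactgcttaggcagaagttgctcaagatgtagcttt
The motifs searched on both strands of the 250 bases before the start were the AP-1 site TGANTCA, the TATA box TATAAA and the NF-κB consensus. Entries were found for 8 of the 10 genes, all but Mmp2 and Mmp9. Mmp3 held TGAGTCA from 46 to 40 bases before the annotated start and TATAAA from 7 to 2 bases before it, and Adamts1 held TATAAA from 32 to 27 bases before its start. No other match was found in these windows. Of the 32851 promoters of the table, 6.75% held the AP-1 site, 12.4% the TATA box and 3.9% the NF-κB consensus.

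All values are log2 expression values made by RMA, which sets every array to the same distribution, so they carry no information on a shift shared by all genes. Array medians lay between 6.73 and 6.75, and any pair of arrays correlated at 0.987 to 0.996 across probe sets. The level of one probe set cannot be set against that of another. Precision is limited by the number of arrays. The brightest of 5 probe sets for Ikbkb, the gene of IKKβ, lay at 8.44 to 8.86 in mdx HRTΔIKKβ and at 8.82 to 9.03 in mdx IKKβf/f, and differed by -0.18 ± 0.11 (SE, limma adjusted p = 0.801). Whole hearts hold many cells in which the gene is intact, and the sources used here do not say whether these probes lie in the deleted stretch, so Ikbkb does not check the labels. In RNA from whole tissue, fewer cells of a type and less RNA per cell cannot be told apart.

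None of the 23 probe sets passed the test between genotypes. Adjusted over all 45037 probe sets by limma, their p-values lay between 0.796 and 0.994, and over the whole array the share called was 0%, with a lowest adjusted p of 0.336. At an unadjusted p under 0.05 there were 2 of the 23, 1 of Mmp14 and 1 of Timp2, both higher in mdx HRTΔIKKβ, against 6.07% of all probe sets in either direction, 3.31% higher and 2.76% lower. Mean levels were higher in mdx HRTΔIKKβ for 20 of 23 probe sets, against 47.6% of all probe sets. By gene, each taken by its brightest probe set, 8 of 10 were higher against 47.7% of all genes, with a median difference of 0.18 on the log2 scale against -0.01 over all genes. The mean difference reached 1.5-fold for 2 of 23, Timp1 and Mmp3, against 1.03% of all probe sets, and for no probe set did the ranges of the groups fail to overlap, against 5.44%. The count at an unadjusted p under 0.05 went to 6 when mdx HRTΔIKKβ heart 3 was left out, where 7.46% of all probe sets passed, to 3 without heart 4 (6.18%) and to 1 without mdx IKKβf/f heart 1 (4.71%). It went to 0 without any 1 of the other 4 hearts, where 4.48% to 5.97% of all probe sets passed.

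**Figure D1:**
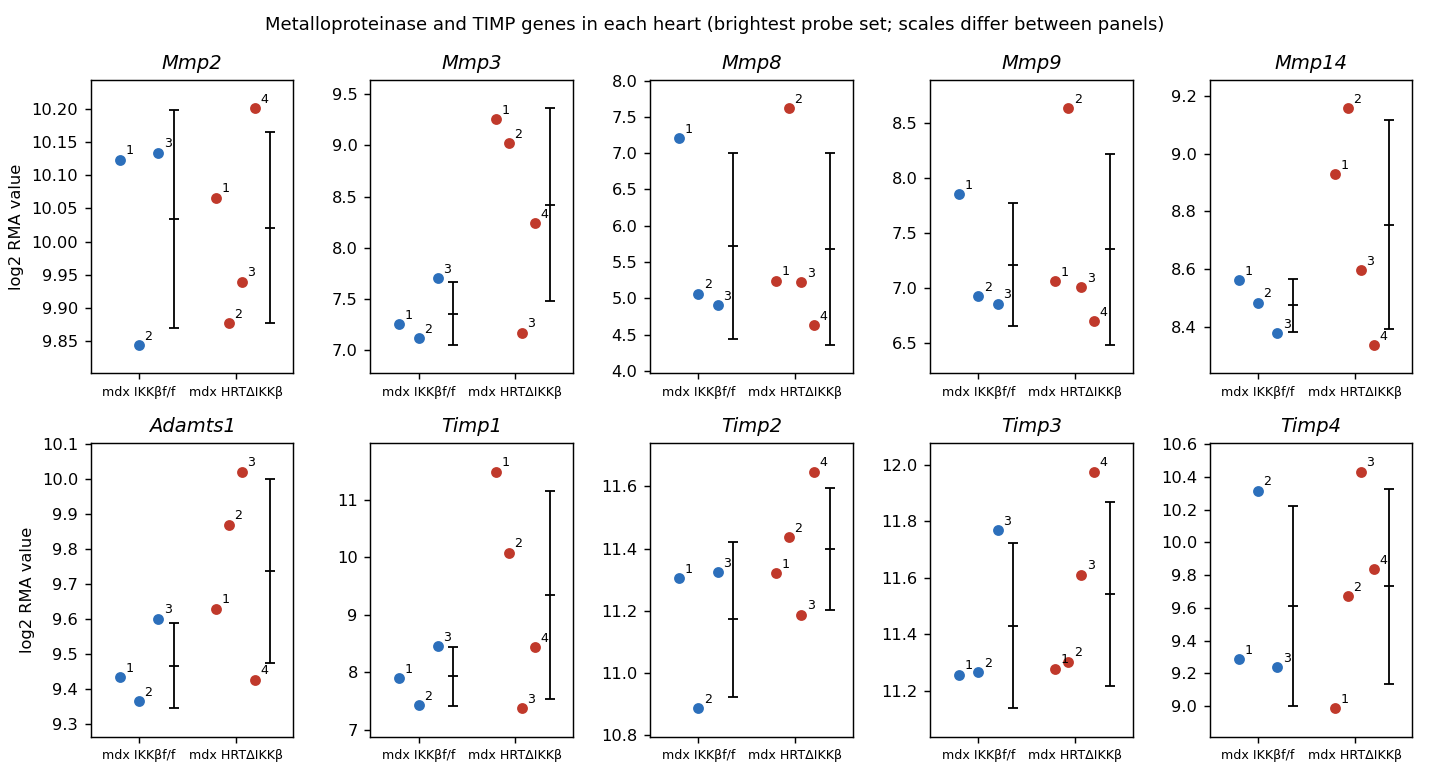
Log2 RMA values of the brightest probe set of each gene in every heart, with mdx IKKβf/f hearts in blue, mdx HRTΔIKKβ hearts in red, heart numbers beside the points, and bars for the mean ± SD (n = 3 and n = 4). The vertical scales differ between panels. The groups overlap in all 10 panels, and Timp1 spans the widest range, from 7.37 to 11.49.

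Mmp2, also known as gelatinase A, is a protease of basement membranes that fibroblasts and vascular cells make. Its brighter probe set, 1439364_a_at, read 10.07, 9.88, 9.94 and 10.20 in mdx HRTΔIKKβ hearts 1 to 4 and 10.12, 9.84 and 10.13 in mdx IKKβf/f hearts 1 to 3. The groups covered almost the same range. The difference was -0.01 ± 0.10 (SE, limma adjusted p = 0.986), with a 95% interval from 0.838-fold to 1.17-fold, and that of the other probe set was 0.02. The sign of so small a difference turned between these probe sets.

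Mmp9, gelatinase B, is stored in granules of neutrophils and is also made by macrophages. Probe set 1416298_at gave 7.06, 8.63, 7.01 and 6.70 in the mdx HRTΔIKKβ hearts and 7.85, 6.92 and 6.86 in the mdx IKKβf/f hearts. The other, 1448291_at, gave 5.71, 7.99, 5.59 and 5.61 and then 6.63, 5.29 and 5.34. Both placed mdx HRTΔIKKβ heart 2 first and mdx IKKβf/f heart 1 second, so the highest heart of each genotype stood apart from the remainder of its own group. Mean levels on the first probe set were 7.35 ± 0.87 (SD, n = 4) and 7.21 ± 0.56 (SD, n = 3), and the difference was 0.14 ± 0.47 (SE, limma adjusted p = 0.961). It was -0.29 without mdx HRTΔIKKβ heart 2 and 0.46 without mdx IKKβf/f heart 1.

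Mmp8, the collagenase of neutrophil granules, had the same order of hearts at the top. Its only probe set, 1449366_at, read 5.24, 7.62, 5.22 and 4.63 in the mdx HRTΔIKKβ and 7.20, 5.07 and 4.90 in the mdx IKKβf/f hearts. Again mdx HRTΔIKKβ heart 2 and mdx IKKβf/f heart 1 were high and the other 5 hearts low, and the range over the 7 hearts was 7.95-fold. The spread within groups was larger than for 99.8% of the probe sets of the array. The genotypes differed by -0.04 ± 0.81 (SE, limma adjusted p = 0.994), with a 95% interval from 0.262-fold to 3.6-fold. Leaving out mdx HRTΔIKKβ heart 2 gave -0.69 and leaving out mdx IKKβf/f heart 1 gave 0.70, so the sign followed whichever of these hearts was kept.

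Markers of neutrophils moved with Mmp8 and Mmp9. The array held 9 of 11 listed markers, 5 higher and 4 lower in mdx HRTΔIKKβ, and their mean, relative to the average heart, was 2.78 in mdx HRTΔIKKβ heart 2 and 2.37 in mdx IKKβf/f heart 1. It lay between -1.20 and -0.77 in the other 5 hearts. S100a8, an alarmin that neutrophils hold in large amounts, read 13.27 and 12.85 in these hearts and 6.93 to 8.22 in the others. Ngp, a protein of neutrophil granules, read 11.92 and 11.93, and 6.34 to 6.71 in the others. Cxcr2, a chemokine receptor of these cells, did not follow, with 6.35 and 6.51 there and 6.00 to 6.52 in the others. Mmp13, an interstitial collagenase that was singled out after its values were seen, read 7.39 and 6.13 there and 3.95 to 4.80 elsewhere. Among the genes with the pattern most like that of Mmp8, also sought after its values were seen, were Slfn4, S100a9 and Wfdc21, with Pearson r of 0.993, 0.992 and 0.991 over 7 hearts. Since these hearts form a high pair and a low remainder, such an r rests on that pair. Without both hearts, a setting chosen after seeing the data, the difference was 0.05 for Mmp8 and 0.03 for Mmp9. The part of neutrophil content in these values was not tested.

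Mmp3, stromelysin-1, degrades proteoglycans and fibronectin and activates other metalloproteinases. Probe set 1418945_at read 9.26, 9.02, 7.17 and 8.24 in mdx HRTΔIKKβ hearts 1 to 4 and 7.25, 7.11 and 7.70 in mdx IKKβf/f hearts 1 to 3. In mdx HRTΔIKKβ, 3 of 4 hearts were above all controls, while heart 3 lay among them. Mean levels were 8.42 ± 0.94 (SD, n = 4) and 7.36 ± 0.31 (SD, n = 3), a difference of 1.07 ± 0.47 (SE) or 2.09-fold, with a 95% interval from 0.979-fold to 4.47-fold. Of the 10 genes Mmp3 had the smallest p by its brightest probe set, 0.0552 unadjusted in limma and 0.796 adjusted. Leaving out any 1 heart gave 0.79 to 1.48. Without mdx HRTΔIKKβ hearts 1 and 2 together, a setting chosen after seeing the data, it was 0.35.

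The genes with a pattern most like that of Mmp3 over the 7 hearts were Mfap5, Tmem45a and Emp1. Their Pearson r was 0.995, 0.992 and 0.985, the highest over the brightest probe sets of all genes. With 7 hearts and so many genes searched, such an r describes these hearts and is no test of a shared pattern. Mfap5, a microfibril-associated glycoprotein of the matrix, read 11.09, 10.93, 9.99 and 10.65 in mdx HRTΔIKKβ and 10.10, 9.997 and 10.24 in mdx IKKβf/f hearts. It thus ranked mdx HRTΔIKKβ hearts 1, 2 and 4 above the other 4 hearts, as Mmp3 did. Its difference was 0.55 ± 0.24 (SE, limma adjusted p = 0.796).

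Mmp14, a membrane-type metalloproteinase at the cell surface that activates the precursor of Mmp2, was measured by 3 probe sets. The brightest, 1448383_at, read 8.93, 9.16, 8.59 and 8.34 in the mdx HRTΔIKKβ and 8.56, 8.48 and 8.38 in the mdx IKKβf/f hearts. Probe set 1416572_at read 8.20, 8.48, 7.96 and 7.73 against 7.77, 7.73 and 7.52. On both, mdx HRTΔIKKβ hearts 2 and 1 were the highest and heart 4 lay within or below the controls. The differences were 0.28 ± 0.18 (SE, limma adjusted p = 0.806) and 0.42 ± 0.17 (SE, limma adjusted p = 0.796), the second being one of the probe sets with an unadjusted p under 0.05, at 0.0396. The dimmest, 1440920_at, differed by 0.12 ± 0.11 (SE). Without mdx HRTΔIKKβ heart 2 the difference on the brightest probe set was 0.15, against 0.42 without heart 4.

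Adamts1, a secreted protease that cleaves the proteoglycans versican and aggrecan, had values of 9.63, 9.87, 10.02 and 9.43 in mdx HRTΔIKKβ and 9.43, 9.36 and 9.60 in mdx IKKβf/f hearts on its only probe set, 1450716_at. Hearts 1 to 3 of mdx HRTΔIKKβ were above all controls, heart 3 being the highest, and heart 4 lay among the controls. Mmp3 was lower in heart 3 than in any other mdx HRTΔIKKβ heart. The difference was 0.27 ± 0.14 (SE, limma adjusted p = 0.796), or 1.21-fold with a 95% interval from 0.96-fold to 1.52-fold. It was 0.18 without heart 3 of mdx HRTΔIKKβ.

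**Figure D2:**
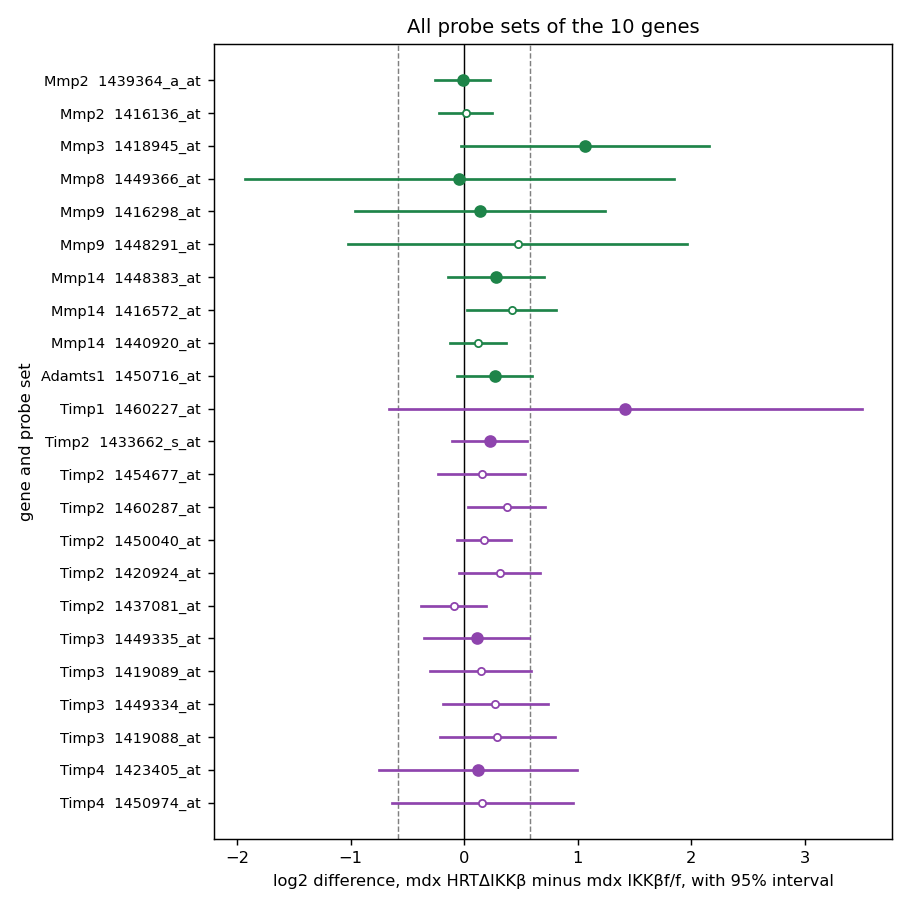
Differences of the 23 probe sets between mdx HRTΔIKKβ (n = 4) and mdx IKKβf/f (n = 3) hearts on the log2 scale, with 95% intervals from limma as lines, proteases in green and TIMPs in purple, the brightest probe set of each gene filled, and 1.5-fold in either direction dashed. Intervals that leave out 0 belong to Mmp14 1416572_at and Timp2 1460287_at, and the widest are those of Timp1 and Mmp8.

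Timp1, the inhibitor that inflammatory cytokines are known to induce, varied more between hearts than any other of the 10 genes. Probe set 1460227_at read 11.49, 10.08, 7.37 and 8.44 in mdx HRTΔIKKβ hearts 1 to 4 and 7.90, 7.43 and 8.45 in mdx IKKβf/f hearts 1 to 3. Hearts 1 and 2 of mdx HRTΔIKKβ lay above every control, heart 4 was level with the highest control, and heart 3 was the lowest of the 7. From lowest to highest this was a 17.4-fold range, and the spread within groups was larger than for 99.9% of all probe sets. Mean levels were 9.35 ± 1.81 (SD, n = 4) and 7.93 ± 0.51 (SD, n = 3). The difference of 1.42 ± 0.90 (SE, limma adjusted p = 0.804), 2.67-fold, had a 95% interval from 0.631-fold to 11.3-fold. It was 0.70 without mdx HRTΔIKKβ heart 1, and -0.02 without hearts 1 and 2 together. In the latter setting the difference of Mmp14 was -0.01.

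Genes with a pattern most like that of Timp1, sought after its values were seen, were Srm, Lif and Itga5, with Pearson r of 0.996, 0.994 and 0.989 over 7 hearts. Srm, the spermidine synthase gene, read 9.43, 9.20, 8.62 and 8.81 in mdx HRTΔIKKβ and 8.77, 8.64 and 8.87 in mdx IKKβf/f hearts. Itga5, a subunit of the fibronectin receptor, read 8.06, 7.88, 7.43 and 7.52 against 7.46, 7.36 and 7.51. All placed mdx HRTΔIKKβ hearts 1 and 2 apart from the remaining hearts, and each r rests largely on them.

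Timp2, which inhibits Mmp2 and also takes part in its activation by Mmp14, was read by 6 probe sets. The brightest, 1433662_s_at, gave 11.32, 11.44, 11.19 and 11.65 in mdx HRTΔIKKβ and 11.31, 10.89 and 11.32 in mdx IKKβf/f hearts. Probe set 1460287_at gave 11.12, 11.16, 10.77 and 11.25 and then 10.92, 10.44 and 10.74. On both, control heart 2 was the lowest of the 7 and mdx HRTΔIKKβ heart 4 the highest, and the groups overlapped. Differences were 0.23 ± 0.14 (SE, limma adjusted p = 0.804) and 0.38 ± 0.15 (SE, limma adjusted p = 0.796, unadjusted 0.0342). Of the other 4 probe sets 3 were higher, by 0.16 to 0.31, and the dimmest, 1437081_at, lay at 4.30 to 4.78 and differed by -0.09. Probe sets of one gene are readings of the same RNA and not replicates. Without mdx IKKβf/f heart 2 the difference on the brightest probe set was 0.08, and without mdx HRTΔIKKβ heart 4 it was 0.14.

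Tmem35a, Pcnx2 and Nelfb had the pattern most like that of Timp2, with Pearson r of 0.984, 0.98 and 0.975 over 7 hearts. Picked as the highest among all genes over so few hearts, an r of this size can arise without any shared regulation. Their differences between genotypes were small, at 0.19, 0.05 and 0.03 on the log2 scale. Pcnx2, for example, ran from 4.81 in mdx IKKβf/f heart 2 to 5.01 in mdx HRTΔIKKβ heart 4, the hearts with the lowest and the highest Timp2. Pcnx2 read the same, 4.92, in mdx HRTΔIKKβ hearts 1 and 2 and in mdx IKKβf/f hearts 1 and 3. Nelfb spanned only 0.10 on the log2 scale over the 7 hearts.

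Timp3, the inhibitor that binds to the matrix, was higher on all 4 of its probe sets. The brightest, 1449335_at, read 11.28, 11.30, 11.61 and 11.98 in mdx HRTΔIKKβ and 11.26, 11.27 and 11.77 in mdx IKKβf/f hearts. The higher values were those of mdx HRTΔIKKβ hearts 3 and 4 and mdx IKKβf/f heart 3, so each group held both low and high hearts. The differences ran from 0.11 ± 0.20 (SE, limma adjusted p = 0.916) on this probe set to 0.29 ± 0.22 (SE, limma adjusted p = 0.816) on 1419088_at. On the brightest the difference was 0.28 without mdx IKKβf/f heart 3 and -0.03 without mdx HRTΔIKKβ heart 4. Hearts 3 and 4 were those of the mdx HRTΔIKKβ group in which Timp1 was lowest.

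Timp4, the TIMP known for its expression in the heart, gave 8.99, 9.67, 10.43 and 9.84 in mdx HRTΔIKKβ and 9.29, 10.32 and 9.24 in mdx IKKβf/f hearts on 1423405_at. The second probe set, 1450974_at, gave 9.04, 9.60, 10.31 and 9.87 and then 9.32, 10.20 and 9.12. Both were highest in heart 3 of mdx HRTΔIKKβ and heart 2 of mdx IKKβf/f and lowest in heart 1 of mdx HRTΔIKKβ. At these extremes Timp4 was low where Timp1 was highest and high where Timp1 was lowest. The other hearts did not keep this order: Timp4 was also low in mdx IKKβf/f hearts 1 and 3, where Timp1 read 7.90 and 8.45. The difference of Timp4 on 1423405_at was 0.12 ± 0.37 (SE, limma adjusted p = 0.958) with a 95% interval from 0.593-fold to 1.99-fold, and the spread within groups was larger than for 99.0% of probe sets. It was -0.11 without heart 3 of mdx HRTΔIKKβ and 0.47 without heart 2 of mdx IKKβf/f.

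**Figure D3:**
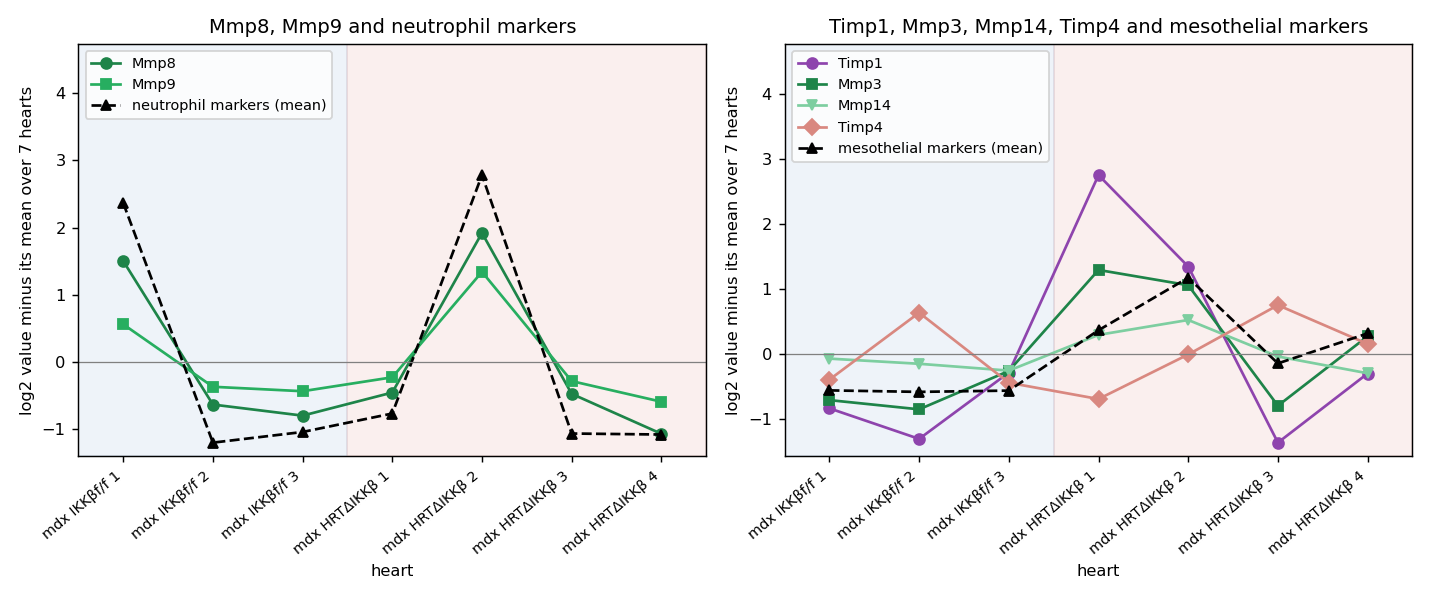
Log2 values of single genes, and the mean over a list of markers, each relative to its own mean over the 7 hearts, for mdx IKKβf/f (blue ground) and mdx HRTΔIKKβ hearts (red ground). Lines link the points of a gene and imply no order of hearts. On the left Mmp8 and Mmp9 peak in mdx IKKβf/f heart 1 and mdx HRTΔIKKβ heart 2 with the neutrophil markers, and on the right Timp1 and Mmp3 peak in mdx HRTΔIKKβ hearts 1 and 2, where Timp4 does not.

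Other markers differed between hearts beside these genes. All 6 markers of mesothelium and epicardium, the cell layer that covers the heart, were higher in mdx HRTΔIKKβ, against 47.7% of all genes. Of these, 5 had an unadjusted p under 0.05, against 3.25% of all genes higher at that threshold. For all 6 the groups did not overlap, against 5.67% of all genes, although none of the 6 passed limma's adjusted test. Their mean relative to the average heart was 0.37, 1.17, -0.15 and 0.32 in mdx HRTΔIKKβ hearts 1 to 4 and -0.58 to -0.56 in the controls. Upk3b, a membrane protein of this layer, was the marker with the largest difference, 1.66 ± 0.39 (SE, limma adjusted p = 0.79). Like Mmp3 and Timp1, the list was higher in hearts 1 and 2 than in heart 3, but it was highest in heart 2 and Timp1 in heart 1. In heart 4 the list was nearly level with heart 1, whereas Timp1 read 8.44 in heart 4 and 11.49 in heart 1. Of 11 macrophage markers 10 were higher, against 47.7% of all genes. At an unadjusted p under 0.05 there were 5 higher and 1 lower, against 3.25% and 2.95% of all genes. For 3 the groups did not overlap, against 5.67%. The list means were -0.08 to 0.27 in mdx HRTΔIKKβ and -0.26 to -0.12 in mdx IKKβf/f hearts. Lyve1, a marker of resident macrophages and of lymphatic vessels, differed by 1.04 ± 0.14 (SE, limma adjusted p = 0.437), and Ccr2, a receptor of recruited monocytes, was the marker that was lower, by -0.41 ± 0.14 (SE, limma adjusted p = 0.796). Of 9 fibroblast markers 7 were higher, none at an unadjusted p under 0.05, with means of -0.27 to 0.21 and -0.33 to 0.12. Both lists were lowest in heart 3 within mdx HRTΔIKKβ, where Mmp3 and Timp1 were lowest too. All 5 genes of airway and lung were higher in mdx HRTΔIKKβ and all 8 of skeletal muscle lower, against 47.7% of all genes higher. At least 1.5-fold apart were 4 of the 5 and all 8, against 1.45% of all genes, and none had an unadjusted p under 0.05. The airway and lung genes had their highest mean, 3.19, in mdx HRTΔIKKβ heart 2, where Mmp8 and Mmp9 were high. Their next highest, 1.30, was in mdx HRTΔIKKβ heart 4, where Mmp8 was lowest. Their lowest, -1.37, was in mdx IKKβf/f heart 1, where Mmp8 and Mmp9 were high. Within mdx HRTΔIKKβ the airway and lung mean was highest in heart 2 and lowest in heart 3, at -1.12, as the mesothelial mean was. In heart 1 it was -0.29, below heart 4, whereas the mesothelial means of these hearts were nearly level. Whether the lists share a source of RNA was not tested. The skeletal muscle genes had their highest mean, 3.99, in mdx IKKβf/f heart 1, and the next, 0.86, in mdx IKKβf/f heart 3, where Mmp8 and Mmp9 were low. Their mean in mdx IKKβf/f heart 2, -1.10, was below that of mdx HRTΔIKKβ heart 2, 0.21. All 4 atrial markers were higher in mdx HRTΔIKKβ, each by at least 1.5-fold, against 1.45% of all genes in either direction. Their lowest mean, -2.37, was in mdx IKKβf/f heart 2 and their highest, 1.01, in mdx HRTΔIKKβ heart 4, the hearts with the lowest and the highest Timp2. Their next highest mean, 0.80, was in mdx HRTΔIKKβ heart 3, where the brightest Timp2 probe set, at 11.19, was lower than in every heart but mdx IKKβf/f heart 2. The 3 of 5 adipocyte markers on the array were higher too, 2 by at least 1.5-fold, with means from -1.07 in mdx IKKβf/f heart 2 to 1.39 in mdx HRTΔIKKβ heart 2. Smooth muscle and pericyte markers had a mean of 0.99 in mdx IKKβf/f heart 3 and of 0.02 or less in the others. Of 6 endothelial markers 3 were higher and 3 lower, with means of -0.09 to 0.18 in mdx HRTΔIKKβ and -0.10 to 0.07 in mdx IKKβf/f hearts. Only Pecam1, at 0.30 ± 0.07 (SE, limma adjusted p = 0.789), had an unadjusted p under 0.05, against 6.2% of all genes. It was also the only one without overlap, against 5.67%. Cardiomyocyte markers had mean levels of 13.31 to 15.05, most of them close to the highest value of any probe set on these arrays, 15.06 to 15.09. Differences can be compressed near that level, so the list does not show how much cardiomyocyte RNA each heart gave. Ryr2, at 13.19 to 13.42, and Ttn, at 14.29 to 14.47, lay further below it and differed by -0.01 and -0.02 between genotypes. The part of these cell types in the values of the proteases and TIMPs was not tested.

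Of 18 other metalloproteinases 13 had a probe set, 7 higher and 6 lower, with a median difference of 0.01. Of these Mmp16, a membrane-type enzyme, was the only one with an unadjusted p under 0.05, against 6.2% of all genes. It read 5.82, 5.91, 6.00 and 5.99 in mdx HRTΔIKKβ and 5.98, 6.14 and 6.22 in mdx IKKβf/f hearts, and differed by -0.19 ± 0.08 (SE, limma adjusted p = 0.796). Next by p were Mmp11, at -0.16 ± 0.08 (SE), Mmp10, at 0.10 ± 0.08, and Mmp19, at 0.19 ± 0.18. Mmp19 read 6.68 and 6.35 in mdx HRTΔIKKβ hearts 1 and 2 and 5.81 to 6.10 in all others, and these were also the hearts with the highest Timp1.

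Of 18 further ADAMTS proteases, the secreted relatives of Adamts1, 14 had a probe set, 6 higher and 8 lower, and none had an unadjusted p under 0.05. The one with the smallest p was Adamts9, a protease of versican, with 9.56, 9.84, 9.79 and 9.06 in mdx HRTΔIKKβ and 9.08, 9.25 and 9.33 in mdx IKKβf/f hearts. As with Adamts1, hearts 1 to 3 of mdx HRTΔIKKβ were above all controls, and heart 4 was not. The difference was 0.34 ± 0.18 (SE, limma adjusted p = 0.796). Adamts4, Adamts3 and Adamts15 followed, at 0.16, 0.17 and 0.18. All 9 ADAM sheddases, membrane proteases that release cell surface proteins, had a probe set, 7 higher and 2 lower, with a median of 0.09 and none at an unadjusted p under 0.05. Their leading genes, Adam15, Adam9, Adam17 and Adam12, differed by 0.14, 0.12, 0.10 and 0.09.

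Among 18 genes that activate, bind or clear metalloproteinases, 16 had a probe set, 10 higher and 6 lower, with a median of 0.09. An unadjusted p under 0.05 was found for 3, Spock2 and Furin higher and Thbs2 lower, against 3.25% of all genes higher and 2.95% lower, and none passed the adjusted test. Spock2, a matrix proteoglycan of the testican family, read 7.50, 7.62, 7.34 and 7.70 in mdx HRTΔIKKβ and 7.32, 7.01 and 7.01 in mdx IKKβf/f hearts. The groups did not overlap for Spock2 and Thbs2, 2 of the 16 genes, against 5.67% of all genes. For Spock2, heart 3 of mdx HRTΔIKKβ and heart 1 of mdx IKKβf/f were nearly level, and the difference was 0.43 ± 0.11 (SE, limma adjusted p = 0.79).

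Thbs2, thrombospondin-2, which binds Mmp2 and carries it to its clearance receptor, read 8.56, 8.53, 8.36 and 8.42 against 8.66, 8.66 and 8.75. All mdx HRTΔIKKβ hearts were below all controls, by -0.22 ± 0.07 (SE, limma adjusted p = 0.796) on average. Furin, the convertase that activates the precursor of Mmp14, read 8.68, 8.67, 8.46 and 8.38 against 8.28, 8.44 and 8.24. Hearts 1 and 2 of mdx HRTΔIKKβ were the highest, as on Mmp14 probe sets 1448383_at and 1416572_at but not on 1440920_at. The difference of Furin was 0.23 ± 0.09 (SE, limma adjusted p = 0.796). Plat, the tissue plasminogen activator, came next by p, with a difference of 0.31 ± 0.17 (SE) and with 9.59 and 9.84 in the same hearts against 9.03 to 9.20 in all others.

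The genes of this list with a mean difference of at least 1.5-fold, which 1.45% of all genes had, were Cd44, the hyaluronan receptor that can hold Mmp9 at the cell surface, and Lcn2, a protein that binds Mmp9. They are named outside the rule, after their values were seen. Cd44 read 9.39, 9.68, 8.22 and 8.87 in mdx HRTΔIKKβ and 8.85, 7.64 and 8.62 in mdx IKKβf/f hearts, and Lcn2 read 10.60, 10.65, 7.54 and 7.35 against 9.55, 7.63 and 7.08. Both were highest in mdx HRTΔIKKβ hearts 1 and 2, and Lcn2 was also high in mdx IKKβf/f heart 1, where the neutrophil markers were high. Neither difference, 0.68 ± 0.40 (SE, limma adjusted p = 0.798) nor 0.95 ± 1.02 (SE, limma adjusted p = 0.858), passed.

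**Figure D4:**
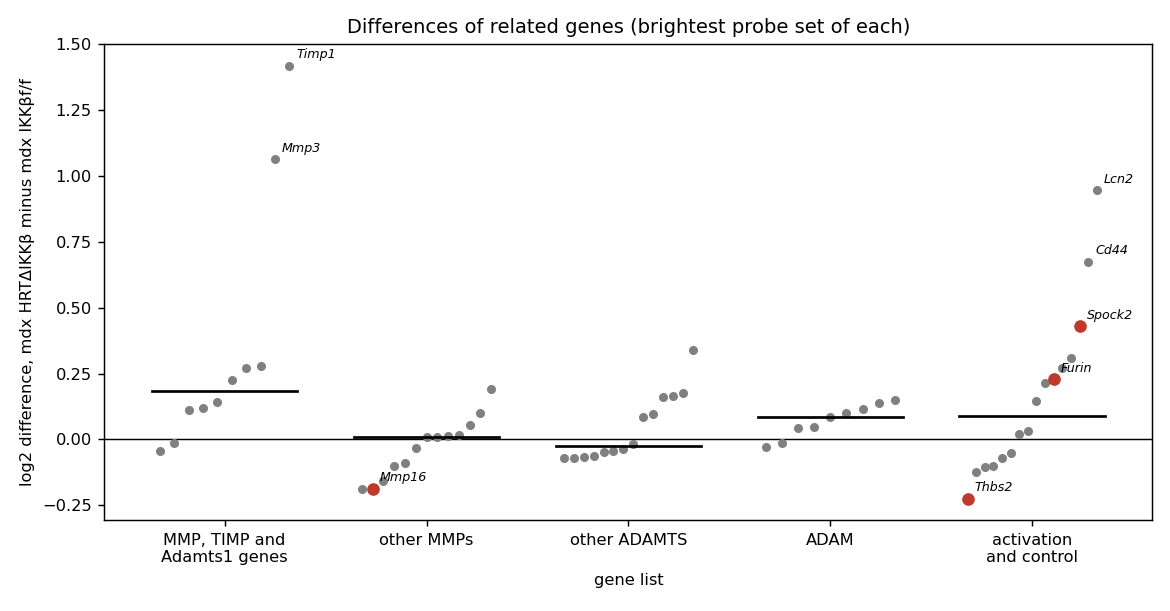
Log2 differences, mdx HRTΔIKKβ minus mdx IKKβf/f, for each gene by its brightest probe set, in the 10 genes described and in 4 lists of related genes, with list medians as lines, genes at an unadjusted p under 0.05 in red, and names for these and for genes at least 1.5-fold apart. Timp1 (1.42) and Mmp3 (1.07) lie above every gene of the other lists, whose medians lie between -0.03 and 0.09.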

How the data were processed

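Total RNA from whole hearts was hybridized to Affymetrix mouse genome arrays. The deposited values are log2 expression values on which the authors ran RMA (background correction, quantile normalization and a summary per probe set). The methods state that RMA was run in Partek and, separately, in Affymetrix Expression Console. Which run was deposited, and the versions, are not given in the sources used here. The study describes its samples as biological replicates. Genes came from the array annotation: of 45037 probe sets, 34945 named 1 gene, 932 several and 9160 none. A gene was represented by its brightest probe set.

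Groups were compared with limma 3.58.1 in R 4.3.3 (lmFit and eBayes, two-sided, no covariate, no filter, Benjamini-Hochberg over all probe sets, threshold 0.05). Intervals are at 95%. Scripts were tested on simulated data. Alternatives were median centring, another quantile normalization, a filter on dim probe sets and a filter on IDs ending in _s_at, _x_at or _a_at. Further ones were other variance models, array weights, the methods' test and a replicate block. Single hearts left out, the mean of a gene's probe sets and another fold threshold were also tried. Marker list means are averages of each gene's deviation from its own mean over the hearts. Named were all 10 genes, up to 4 genes with the smallest p of each related list, and the 3 genes most like the protease and the TIMP with the smallest p. The genes and lists were chosen with earlier results of these data known. Promoter letters are from the RefSeq table of GRCm38.p6.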

Additional observations from a re-analysis of the deposited data

Results flagged for a closer look

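For Mmp9 probe set 1448291_at, 1 heart of the mdx HRTΔIKKβ group stood far from the other 3. Heart 2 read 7.99 and the next highest 5.71, and this gap was 0.95 of the range of the group. Chance alone flags about 1 in 20 groups, and 23 probe sets were examined. The same heart had the highest Mmp8 and the highest mean of the neutrophil markers, whose part in the value was not tested. No other probe set of the proteases or TIMPs met this criterion in the 4 hearts, and groups of 3 were not examined.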

How the results depend on the processing

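No gene reached an adjusted p under 0.05 in any of 179 alternative values for the 10 genes, the lowest being 0.494 for Mmp3 with 1 heart left out, and 152 kept the sign of the difference. Only Mmp3, Adamts1 and Timp2 kept it in every alternative tried. The number of arrays limits what can be seen: the 95% interval reached from 0.262-fold to 3.6-fold for Mmp8.

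Leaving out 1 heart at a time, the log2 difference ran from -0.11 to 0.0374 for Mmp2, -0.69 to 0.70 for Mmp8, -0.29 to 0.46 for Mmp9, 0.79 to 1.48 for Mmp3, 0.15 to 0.42 for Mmp14, 0.18 to 0.37 for Adamts1, 0.70 to 2.08 for Timp1, 0.08 to 0.30 for Timp2, -0.0333 to 0.28 for Timp3 and -0.11 to 0.47 for Timp4. The number of probe sets called over the array ran from 0 to 1, that of the 23 at an unadjusted p under 0.05 from 0 to 6, at least 1.5-fold apart from 2 to 4 and without overlap from 0 to 4. Of all probe sets, 4.48% to 7.46%, 0.913% to 1.35% and 7.41% to 14.3% met these 3 criteria when 1 heart was left out. Mmp2 was 0.0159 without probe sets whose IDs end in _s_at, _x_at or _a_at, which drops 1439364_a_at. It was 0.00154 as the mean of its probe sets. Mmp9 was -0.0623 with array weights. Array weights left 1 of the 23 at an unadjusted p under 0.05 and the methods' unpaired test 0, with 0 called over the array after Benjamini-Hochberg adjustment.

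The labels do not say whether the replicate number pairs hearts. Deviations of same-numbered hearts correlated at -0.08, -0.38 and -0.04. Those of mdx HRTΔIKKβ heart 2 and mdx IKKβf/f heart 1, which differ in number, correlated at 0.37. So few correlations cannot settle whether hearts were paired. With the number as a block, which leaves out mdx HRTΔIKKβ heart 4, Mmp8 was 0.31, Timp3 was -0.0333, 3 of the 23 probe sets did not overlap, against 9.03% of all, and no probe set was called (0).

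Added after seeing the data, leaving out both hearts with high neutrophil markers gave 0.0801 for Mmp2, 0.0501 for Mmp8, -0.0252 for Timp4 and 3 probe sets without overlap, against 15.5% of all. Leaving out mdx HRTΔIKKβ hearts 1 and 2 together gave 0.0367 for Mmp2, -0.357 for Mmp9, -0.00816 for Mmp14, -0.0227 for Timp1, 1 probe set at least 1.5-fold apart, against 1.23% of all, and 1 without overlap, against 18.6%. The causes were not tested. Mmp8 has no value without dim probe sets, since it is one of them.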
